A study of Homo sapiens with 30 samples.

Results

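The peaks of H3K27me3 and H3K27ac were read at 9 imprinted genes in K562, an established human chronic myeloid leukaemia line. The genes were H19, IGF2, DLK1, MEG3, SNRPN, PEG10, MEST, NNAT and GNAS. Each was given as a span on hg19, and a locus here is that span with 5 kb added on either side. The loci held 119 of the 587932 peaks that SEACR called over all 30 libraries, and 29 of the 157073 peaks that MACS2 called in 6 of them. The genes were given by name, with earlier results of these data known.

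The libraries were made by CUT&Tag, in which a transposase is tethered to an antibody on chromatin and inserts sequencing adapters into nearby DNA. Each experiment used 500000 K562 cells and stood alone in its condition, so no value has a replicate of the same condition. H3K27me3 was profiled with CST9733 at 1/100, untreated, after column extraction at 11 and 13 PCR cycles and after SDS extraction at 11, 13 and 15 cycles. H3K27ac was profiled without treatment after both extractions at 11 and 13 cycles, with Diagenode C15410196 at 1/50 and with ab177178, ab4729 and Active Motif 39133 at 1/100. At 15 cycles with SDS extraction, H3K27ac libraries treated with trichostatin A (TSA, a histone deacetylase inhibitor) used ab177178 and ab4729 at 1/100 and Diagenode C15410196 at 1/50 and 1/100. The untreated H3K27ac libraries at 15 cycles used the same antibodies and dilutions, and Active Motif 39133 at 1/100. There were thus 5 H3K27me3 and 25 H3K27ac libraries. K562 is 1 cell line, and the peak lists do not separate the parental copies, so whether a mark sat on the maternal or the paternal copy cannot be read from them.

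An imprinted gene is transcribed mainly from the copy inherited from 1 parent. The choice is set by DNA methylation laid down at control regions in the germ line, and kept at many of them by the zinc finger protein ZFP57, which binds a methylated hexamer. Imprinted genes lie in clusters, where a gene active on the maternal copy and a gene active on the paternal copy often share enhancers and a control region. H3K27me3 is deposited by Polycomb repressive complex 2 and marks repressed chromatin, and H3K27ac marks active promoters and enhancers.

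Promoter sequence is shown for 3 of the genes, to give the CpG dinucleotides and the ZFP57 hexamer beside the peaks. GNAS was taken because the marks lay in different parts of it, MEST because H3K27me3 lay at the 5′ end of its span, and SNRPN because it had neither mark. RefSeq promoter windows of GRCh38.p14, which run from 250 bases before a start to 50 after it, were in hand for 5 of the 9 genes, GNAS, H19, MEG3, MEST and SNRPN. IGF2, PEG10, DLK1 and NNAT had no entry. The first window printed is the most upstream of 6 for GNAS, on the plus strand at chr20:58839498-58839797, and the second is the most downstream, at chr20:58888930-58889229. The third is the most upstream of 5 for MEST, at chr7:130485925-130486224 on the plus strand. The fourth is the SNRPN window that is shared with SNURF, at chr15:24954737-24955036 on the plus strand. CpG dinucleotides are in capitals.
GNAS upstream: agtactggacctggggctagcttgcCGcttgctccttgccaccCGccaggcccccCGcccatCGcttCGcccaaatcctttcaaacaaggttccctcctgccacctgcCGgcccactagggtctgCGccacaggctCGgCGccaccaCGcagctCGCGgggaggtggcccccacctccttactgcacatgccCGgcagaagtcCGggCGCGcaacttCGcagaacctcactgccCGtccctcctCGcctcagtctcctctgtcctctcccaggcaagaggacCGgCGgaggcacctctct
GNAS downstream: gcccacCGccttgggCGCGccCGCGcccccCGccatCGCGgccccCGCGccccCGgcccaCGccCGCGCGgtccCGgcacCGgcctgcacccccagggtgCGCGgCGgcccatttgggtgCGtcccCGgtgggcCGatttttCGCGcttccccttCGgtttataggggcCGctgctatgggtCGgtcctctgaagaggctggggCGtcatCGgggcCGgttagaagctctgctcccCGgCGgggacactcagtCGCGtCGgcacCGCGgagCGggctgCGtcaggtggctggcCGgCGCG
MEST upstream: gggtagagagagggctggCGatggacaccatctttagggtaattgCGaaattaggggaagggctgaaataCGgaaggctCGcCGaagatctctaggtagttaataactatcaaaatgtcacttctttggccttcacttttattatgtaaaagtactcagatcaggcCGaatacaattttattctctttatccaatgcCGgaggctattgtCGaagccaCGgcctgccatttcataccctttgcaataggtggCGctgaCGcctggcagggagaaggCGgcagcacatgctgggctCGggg
SNRPN shared with SNURF: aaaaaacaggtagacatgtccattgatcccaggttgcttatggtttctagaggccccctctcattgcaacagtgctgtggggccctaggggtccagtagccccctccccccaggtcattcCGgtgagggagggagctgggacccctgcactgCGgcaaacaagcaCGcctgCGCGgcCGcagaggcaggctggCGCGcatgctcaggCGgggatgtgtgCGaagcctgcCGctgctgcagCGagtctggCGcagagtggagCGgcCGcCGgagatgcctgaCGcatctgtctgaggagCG

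The downstream GNAS window held 43 CpG dinucleotides, a number reached by 4.98% of all 35116 promoter windows. The upstream GNAS window held 21, reached by 39.5%, the SNRPN window 18, reached by 44.5%, and the MEST window 13, reached by 51.7%. The printed MEST window had the fewest CpG dinucleotides of those for MEST, and the others held 16 to 25. The printed SNRPN window had the most of those for SNRPN, and the others held 2 to 11. The median over all promoter windows was 14. The hexamer TGCCGC, counted on either strand and so also as GCGGCA, occurred once in the upstream GNAS window and once in the MEST window, 2 times in the SNRPN window and not in the downstream GNAS window. The other MEST windows held it 0 to 3 times, and the other SNRPN windows 0 to 1 times. Of the 19 windows of the 5 genes 10 held it, a larger share than the 16.7% of all promoter windows. Several of the 19 overlap each other, among them the MEG3 windows, which all held it. The shares were therefore not compared by a test. A match of these letters is not a binding site. These windows are on another build than the peaks and were not placed on them.

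The SEACR lists of H3K27me3 held 65283 to 106997 peaks over 46.4 to 149 Mb, and those of H3K27ac held 3024 to 22808 peaks over 3.15 to 43.3 Mb. Per the labels, downsampling preceded peak calling at 11 and 13 cycles, and the read depth of every list is unknown. The H3K27me3 list of column extraction at 11 cycles stood apart. It overlapped a median of 20.4% of the peaks in the 16 downsampled H3K27ac lists, whereas the other 4 H3K27me3 lists overlapped medians of 4.6% to 9.9%. The part of this library in the results was not tested, and counts are given with and without it.

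H3K27me3 peaks lay at 5 of the 9 loci, H19, IGF2, PEG10, MEST and GNAS. H3K27ac peaks lay at 5, DLK1, MEG3, PEG10, NNAT and GNAS, and those at NNAT all lay beyond its span. Neither mark had a peak at SNRPN in any list. The loci differ in length, so the share of windows of the same length is given with each locus below. PEG10 and GNAS held peaks of both marks, and bases under both marks occurred at PEG10 alone among the 9 loci. Such bases also lay in the intervals from H19 to IGF2 and from DLK1 to MEG3, described below. Windows with peaks of both marks were not counted, so these counts have no background share.

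**Figure D1:**
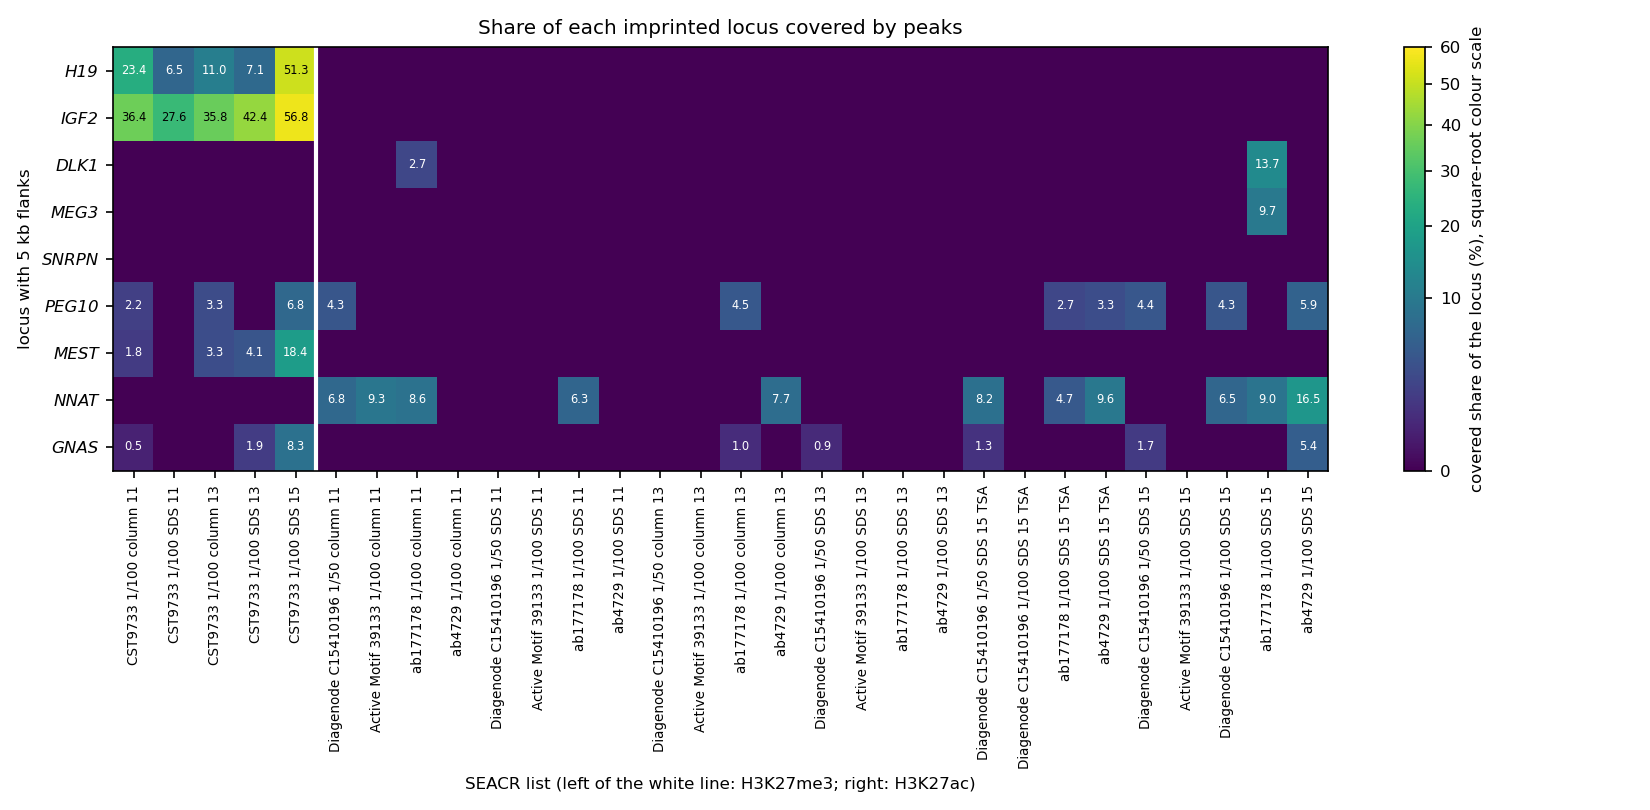
Share of each locus (rows, span with 5 kb flanks) covered by SEACR peaks, in percent, in each library (columns, named by antibody, dilution, DNA extraction, PCR cycles and TSA). H3K27me3 libraries stand left of the white line and H3K27ac libraries right of it, and cells without a number are at 0. The H19 and IGF2 loci hold H3K27me3 in all 5 lists. The NNAT locus holds H3K27ac in 11 of 25, always beyond the NNAT span.

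H19 makes a noncoding RNA from the maternal copy, and IGF2 makes a fetal growth factor from the paternal copy. They share enhancers and a control region that lies close to H19. In K562 the H19 locus, chr11:2016406-2019065 without its flanks, had H3K27me3 peaks in 5 of 5 lists and H3K27ac peaks in 0 of 25. Peaks of H3K27me3 covered 23.4% of it in the column list at 11 cycles and 6.51% in the SDS list at 11 cycles. At 13 cycles the column list covered 11.0% and the SDS list 7.08%, and at 15 cycles the SDS list covered 51.3%. The 15-cycle list stood far above the others and is not described as downsampled, unlike the other 4. Among all windows of the same length, 9.53% had a peak in all 5 H3K27me3 lists and 83.5% had none in any H3K27ac list. Without the column list at 11 cycles the count was 4 of 4.

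The 20 peaks at H19 were 343 to 1522 bp long. Peak strength is given as a rank percentile of total signal within a list, where 100 is the strongest peak, and ran from 1.0 to 84.4 at H19, where the highest peak without the column list at 11 cycles ranked 49.5. A region here is a stretch of overlapping peaks merged over the lists of a mark, so that peaks of different lists within it need not overlap each other. The region found in the most lists, chr11:2015414-2017880, lay across the low end of the span in 4 lists and had a mean rank percentile of 40.3. Without the column list at 11 cycles it had 25.6 in 3 lists, below the 42.6 of chr11:2023175-2024521 in the 5′ flank, also in 3 lists. H19 is read toward lower coordinates, so its start is at the high end of the span. There, chr11:2018901-2019672 was marked in 4 lists, at a mean rank percentile of 13.1, and in 3 at 16.1 without that list.

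The IGF2 locus, chr11:2150347-2170833 without its flanks, was the most widely covered of the 9 in every SEACR list of H3K27me3. H3K27me3 peaks covered 36.4% of it in the column list and 27.6% in the SDS list at 11 cycles, 35.8% in the column list and 42.4% in the SDS list at 13 cycles, and 56.8% in the SDS list at 15 cycles. These shares lay above those of 97.6% to 99.1% of all windows of that length, which averaged 2.02% to 6.51% in the same lists. No H3K27ac list of 25 had a peak there, as was so of 71.5% of windows, and 16.7% of windows had H3K27me3 in all 5 lists. Without the column list at 11 cycles, 4 of 4 lists had it at IGF2. The strongest region, chr11:2164633-2172026, was marked in 5 of 5 lists at a mean rank percentile of 99.0. It covers the high end of the span, which is the 5′ side of this gene. A further region inside the gene, chr11:2154031-2160639, was marked in 5 of 5 lists at a mean rank percentile of 92.3.

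Between H19 and IGF2 lie 131.3 kb, and H3K27me3 ran through much of them. It covered 27.02% and 17.4% in the column and SDS lists at 11 cycles, 22.6% and 28.9% in the column and SDS lists at 13 cycles, and 52.2% in the SDS list at 15 cycles. Each list had 28 to 46 peaks in this interval. The densest stretch began 6.31 kb beyond the high end of the H19 span, on its 5′ side. It consisted of chr11:2025378-2046237 and chr11:2046354-2063252, both marked in 5 of 5 lists, and the strongest peak of the first ranked from 98.2 to 99.8 by list. Above position 2063252 no list had a H3K27me3 peak until 2091762, and from there to IGF2 3 more regions were marked in 5 of 5 lists. MACS2 called 1 peak of 37766 bp over the dense stretch, chr11:2025519-2063284, in the 15-cycle library. H3K27ac appeared in 2 of 25 lists, once with ab4729 after TSA and once with ab177178 after column extraction at 11 cycles, and covered at most 0.622%. Both of these H3K27ac peaks lay inside the dense H3K27me3 stretch. Windows of this length had H3K27me3 in all 5 lists in 36.9% of cases and H3K27ac in at least 2 of 25 lists in 48.7%. The interval was added after the peaks at the loci had been seen.

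**Figure D2:**
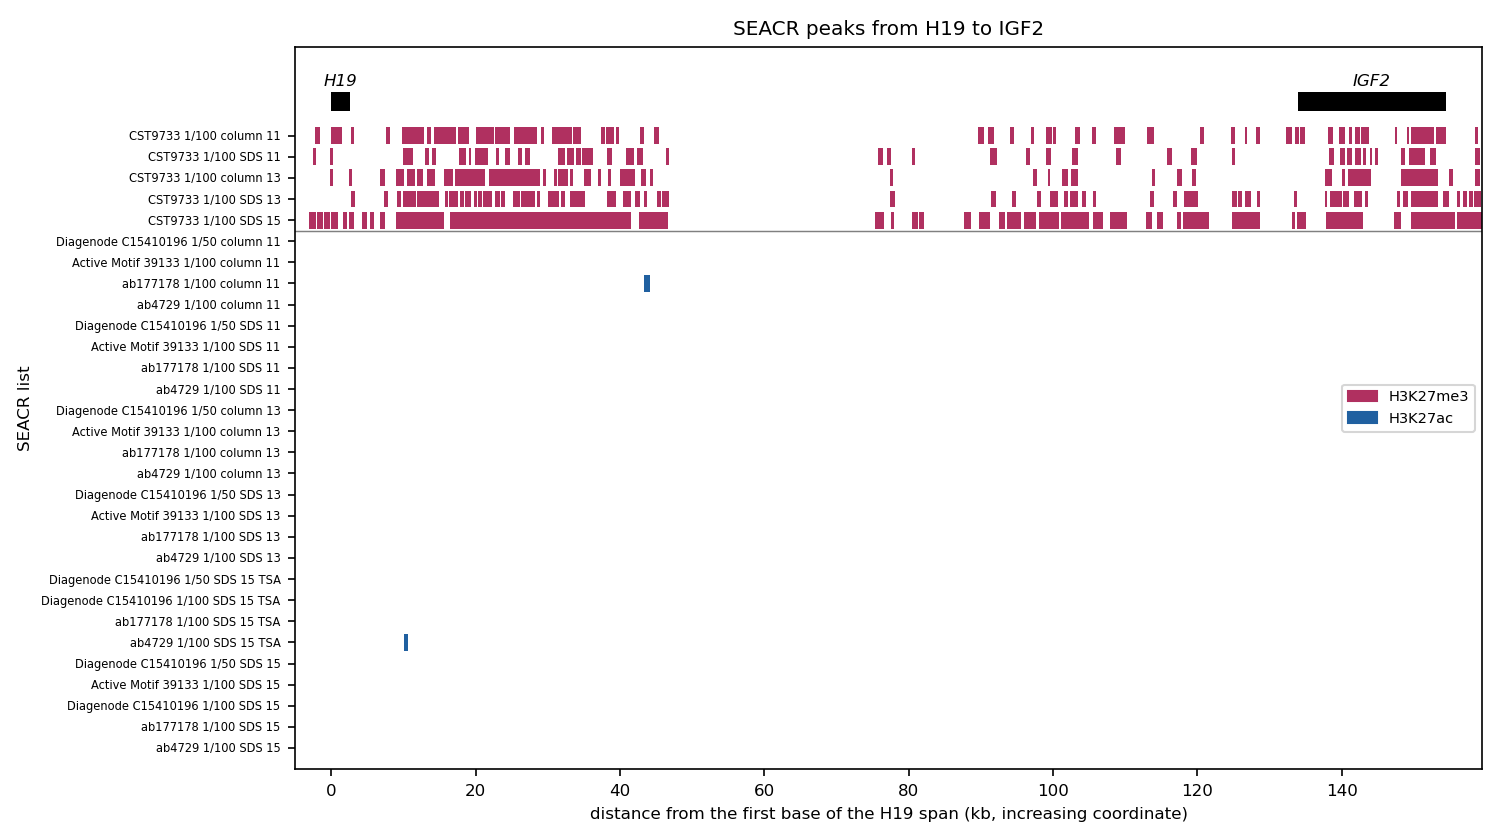
SEACR peaks (bars) of each library (rows) from H19 to IGF2, by distance from the first base of the H19 span in kb, with gene spans in black, H3K27me3 rows at the top and H3K27ac rows under the line. The 5 H3K27me3 rows are densest in the part nearest H19, empty in the stretch after it and marked again toward IGF2, and 2 of the 25 H3K27ac rows hold a peak.

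DLK1, a transmembrane protein related to Notch ligands, is made from the paternal copy, and MEG3, a noncoding RNA, from the maternal copy. Their loci are chr14:101193202-101201467 and chr14:101292445-101327363 without flanks. Neither locus had a H3K27me3 peak in any of 5 lists, which held for 64.3% of windows of the DLK1 length and 51.8% of windows of the MEG3 length. H3K27ac peaks lay at DLK1 in 2 of 25 lists and at MEG3 in 1 of 25, all with ab177178. Among windows of the same lengths, 13.7% had a peak in at least 2 lists and 35.7% in at least 1.

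The DLK1 region with the most lists, chr14:101193651-101194940, lay 0.45 to 1.74 kb from the low end of the span, which is the start of the gene. It was called in the ab177178 column list at 11 cycles and in the untreated SDS list of ab177178 at 15 cycles, at a mean rank percentile of 19.7. In these lists peaks covered 2.68% and 13.7% of the locus. The 3 peaks at MEG3 were all in the untreated SDS list of ab177178 at 15 cycles, where they covered 9.71%. The highest ranked of them, chr14:101329841-101331589 at rank percentile 59.5, lay in the flank beyond the gene. MACS2 called no peak of either mark at DLK1 or MEG3.

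Between DLK1 and MEG3 lie 91.0 kb. H3K27ac peaks lay there in 25 of 25 lists, and 486 of 25161 windows of that length, or 1.93%, had one in all 25. Peaks covered from 0.74% to 13.2% of the interval, with a median of 2.67%. They fell mainly in a pair of regions. The first, chr14:101234003-101240715, began 32.53 kb past DLK1 and was marked in 23 lists, with ranks of the strongest peak from 8.2 to 98.9 and a median of 80.6. The second, chr14:101254152-101259956, was marked in 17 lists, with ranks from 0.9 to 98.5 and a median of 74.1. At most 22 and 16 lists had a peak over the same base of these regions. The lists that lacked the first region were those of ab177178 after column extraction and Active Motif 39133 after SDS extraction, both at 11 cycles, and each had the second.

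MACS2 called peaks in the first of these regions in 5 of 5 H3K27ac libraries, and the merged call was chr14:101236128-101239670. H3K27me3 had 1 peak in the interval, chr14:101256543-101257205, in the column list at 11 cycles, the library that stood apart, and none in the other 4 lists. That peak lay inside the second H3K27ac region. Windows of this length held H3K27me3 in at least 1 of 5 lists in 60.5% of cases. This interval too was added after the peaks had been seen.

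**Figure D3:**
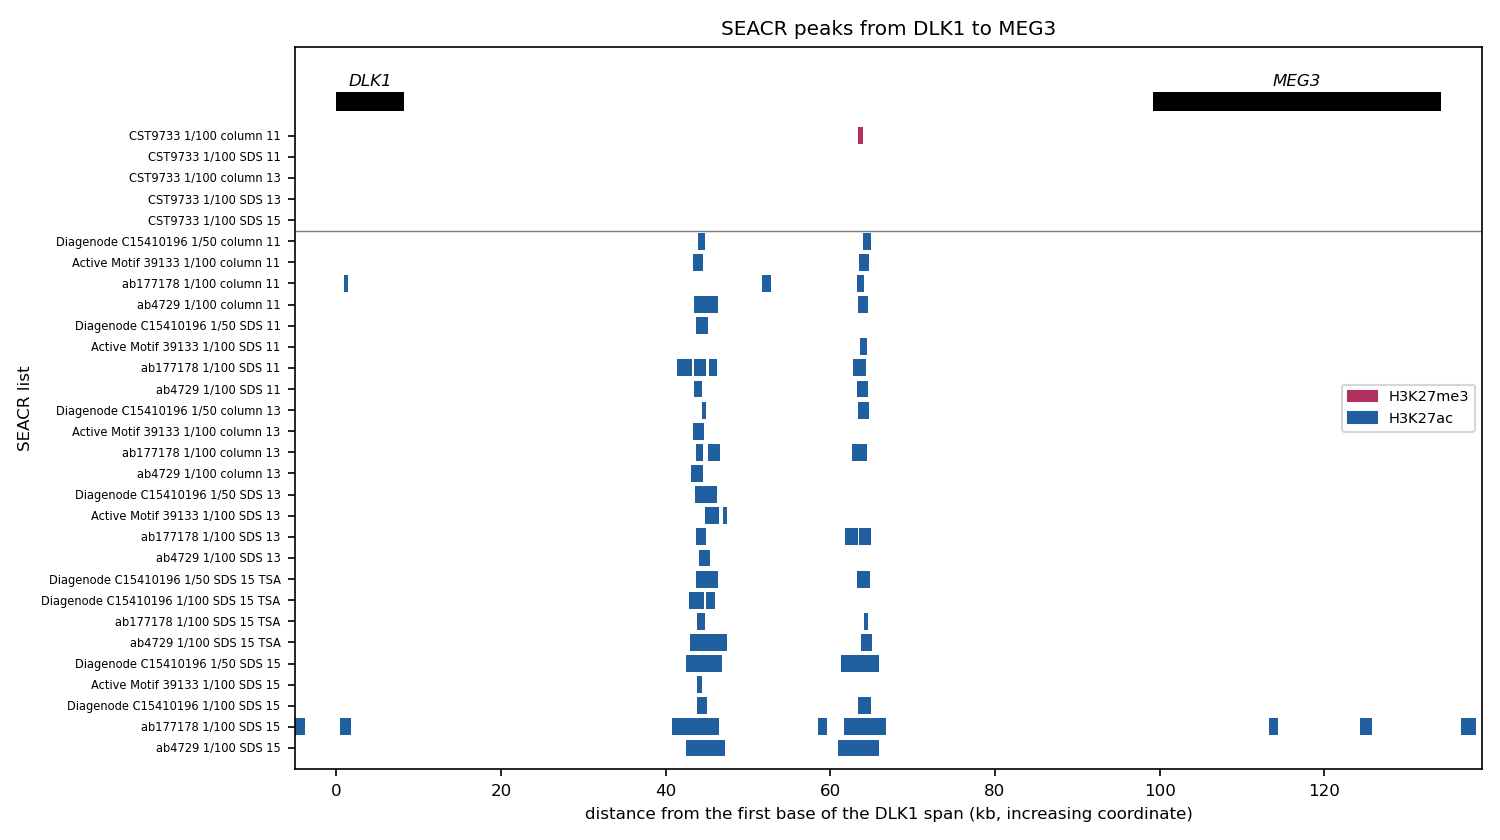
SEACR peaks (bars) of each library (rows) from DLK1 to MEG3, by distance from the first base of the DLK1 span in kb, with gene spans in black, H3K27me3 rows at the top and H3K27ac rows under the line. H3K27ac peaks stand in 2 columns between the genes, in 23 and 17 of 25 lists, and few lie on the genes themselves.

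SNRPN encodes a protein of the small nuclear ribonucleoproteins and lies in the region of chromosome 15 tied to Prader-Willi syndrome, where it is active on the paternal copy. Its span, chr15:25068794-25223870, gave the longest locus of the 9 at 165.1 kb. It had no peak in 5 H3K27me3 lists and none in 25 H3K27ac lists, and MACS2 called none either. Windows of this length lacked H3K27me3 in 28.2% of cases and H3K27ac in 34.6%. The nearest H3K27me3 peak lay 273.8 to 686.6 kb from the span, and the nearest H3K27ac peak 79.7 to 1717 kb from it, by list.

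PEG10, a gene derived from a retrotransposon and active on the paternal copy, lies at chr7:94285637-94299006. H3K27me3 peaks covered 2.16% of its locus in the column list at 11 cycles, 3.27% in the column list at 13 cycles and 6.83% in the SDS list at 15 cycles. The SDS lists at 11 and 13 cycles had none. That made 3 of 5 lists, against 23.5% of windows with at least as many, and 2 of 4 without the column list at 11 cycles. H3K27ac peaks lay there in 7 of 25 lists, against 8.46% of windows with at least as many, and covered 2.70% to 5.91% in those lists.

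The marks met 1.44 kb from the start of PEG10. The H3K27me3 region chr7:94287075-94287980 was called in 3 lists at a mean rank percentile of 58.7, and in 2 at 78.4 without the column list at 11 cycles. All 906 bp of it lay inside the H3K27ac region chr7:94286905-94288506. The H3K27ac region was called in 7 lists at a mean rank percentile of 49.8. MACS2 called H3K27me3 in the same place in the 15-cycle library with a −log10 q-value of 11.3, at rank percentile 99.8 of that list. It called H3K27ac there in 3 of 5 libraries with −log10 q-values of 113 for ab4729, 49.7 for Diagenode at 1/50 and 52.7 for Diagenode at 1/100. The lists come from separate libraries of many cells, so the data do not show whether the marks share a cell or a copy.

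MEST encodes a protein of the hydrolase fold and is active on the paternal copy. Its span is chr7:130126046-130146133. H3K27me3 peaks covered 1.84% of the locus in the column list and none in the SDS list at 11 cycles, 3.33% in the column list and 4.14% in the SDS list at 13 cycles, and 18.4% in the SDS list at 15 cycles. No H3K27ac list of 25 had a peak there, as was so of 71.7% of windows, and the nearest lay 117.6 to 280.3 kb from the span. H3K27me3 was found in 4 of 5 lists, against 21.6% of windows with at least as many, and their peaks merged into the region chr7:130125766-130129764. It lay from 0.28 kb before the low end of the span, which is the 5′ end of this gene, to 3.72 kb after it. On GRCh38.p14 the promoter windows of MEST start from chr7:130485925 to chr7:130491835, so the gene has starts further downstream. The windows were not placed on the peaks, and the region was not assigned to any 1 start. The mean rank percentile of this region was 69.6. At most 3 lists had a peak over the same base of it, and the peak of the column list at 13 cycles, chr7:130127519-130128520, overlapped that of the 15-cycle list alone. Without the column list at 11 cycles, 3 of 4 lists had the region, at a mean rank percentile of 80.6.

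GNAS encodes the stimulatory G protein alpha subunit and other products from several promoters, some active on 1 parental copy only. Its span is chr20:57414773-57486247. H3K27me3 peaks covered 0.541% of the locus in the column list at 11 cycles, 1.91% in the SDS list at 13 cycles and 8.30% in the SDS list at 15 cycles. The remaining H3K27me3 lists had none. H3K27ac peaks covered 0.963% with ab177178 in the column list at 13 cycles, 0.864% with Diagenode at 1/50 in the SDS list at 13 cycles and, in SDS lists at 15 cycles, 1.3% with Diagenode at 1/50 after TSA, 1.72% with Diagenode at 1/50 untreated and 5.39% with ab4729 untreated. H3K27me3 was thus found in 3 of 5 lists, against 40.4% of windows with at least as many, and in 2 of 4 without the column list at 11 cycles. H3K27ac was found in 5 of 25, against 26.1% of windows.

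The marks lay apart at GNAS. The H3K27me3 region with the most lists, chr20:57414130-57415236, straddled the low end of the span in 2 lists at a mean rank percentile of 30.6, and the other 7 regions, 1 list each, reached no further than 29.19 kb. Without the column list at 11 cycles the first region too was in 1 list, the SDS list at 15 cycles, at rank percentile 49.7. The H3K27ac region with the most lists, chr20:57466707-57468985, lay 51.93 to 54.21 kb from the low end in 5 lists, at a mean rank percentile of 29.8. The other H3K27ac region, chr20:57462791-57464899, lay 48.02 to 50.13 kb from the low end. It was in 1 list, that of untreated ab4729 at 15 cycles, at rank percentile 2.0. On GRCh38.p14 the first and last promoter windows of GNAS start 49.4 kb apart. These windows were not placed on the peaks, so neither region was assigned to a promoter. MACS2 called H3K27ac in 2 of 5 libraries and H3K27me3 in 1 of 1.

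NNAT encodes a small membrane protein of the developing brain and is active on the paternal copy, inside an intron of BLCAP. Its span is chr20:36149607-36152092. H3K27me3 had no peak at the locus in any of 5 lists, as was so of 68.7% of windows, and the nearest lay 22.1 to 32.8 kb away. H3K27ac was found in 11 of 25 lists, against 3.4% of windows with at least as many, and covered 4.69% to 16.5% of the locus in those lists. All 11 peaks fell in the region chr20:36155032-36157441, at a mean rank percentile of 42.7. This region lies in the flank and just past it, at least 2.94 kb beyond the high end of the span, and no peak touched the NNAT span itself. In RefSeq on GRCh38.p14 BLCAP covers the whole of NNAT and extends past it on both sides. No hg19 annotation was in hand, so the region was not assigned to either gene. MACS2 called H3K27ac in this region in 4 of 5 libraries.

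**Figure D4:**
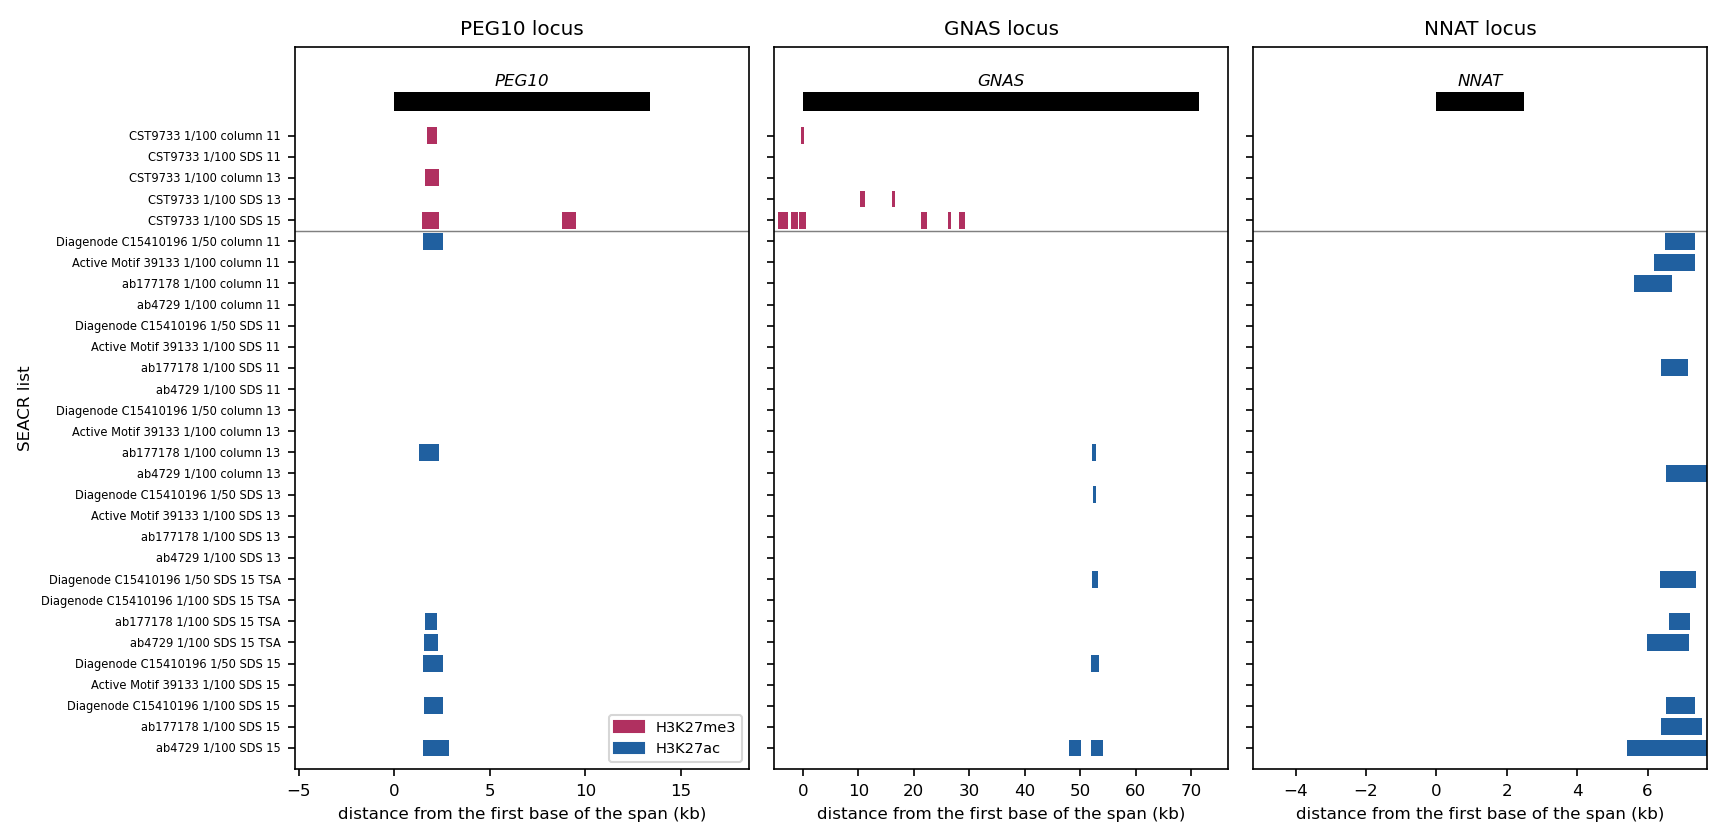
SEACR peaks (bars) of each library (rows) at PEG10, GNAS and NNAT, by distance from the first base of each span in kb, with gene spans in black, H3K27me3 rows at the top and H3K27ac rows under the line. At PEG10 the marks overlap, at GNAS they lie at different distances, and at NNAT the 11 H3K27ac peaks lie beyond the high end of the span.

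The covered shares of the marks were compared over the 20 downsampled lists, 4 of H3K27me3 and 16 of H3K27ac, with an exact two-sided stratified permutation test that matches extraction and cycle number. The smallest p it can give is 0.0032, and adjusted p-values are by Benjamini-Hochberg over 38322 windows of 30 kb and loci. At IGF2 the mean share was 35.5% ± 6.09 for H3K27me3 (SD, n = 4) and 0% for H3K27ac (n = 16), with an exact p of 0.0032 and an adjusted p of 0.00963. At H19 it was 12.0% ± 7.87 for H3K27me3 (SD, n = 4) and 0% for H3K27ac (n = 16), with the same exact and adjusted p. MEST averaged 2.33% ± 1.82 for H3K27me3 (SD, n = 4) and 0% for H3K27ac (n = 16), with an exact p of 0.016 and an adjusted p of 0.0351. In all 4 pairings of extraction and cycles H3K27me3 exceeded every H3K27ac list at IGF2 and H19, and in 3 of 4 at MEST. Without the column lists at 11 cycles the exact test gave an adjusted p of 0.0415 at IGF2 and H19 and 0.145 at MEST, so that the MEST call was lost. It was also lost without the column or SDS lists at 13 cycles and without any 1 H3K27ac antibody, and the H19 and MEST calls were lost when only the stronger 50% of each list was kept or the lists were cut to equal size.

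These 3 loci of 7 with a peak in the downsampled lists compare with 42.4% of all windows and loci in which H3K27me3 covered more, so the count is near the background. No locus had H3K27ac higher, which was called in 3.78% of all. PEG10 averaged 1.36% ± 1.63 for H3K27me3 (SD, n = 4) and 0.551% ± 1.51 for H3K27ac (SD, n = 16), with an adjusted p of 0.489 by the exact test. GNAS averaged 0.613% ± 0.902 for H3K27me3 (SD, n = 4) and 0.114% ± 0.313 for H3K27ac (SD, n = 16), with an adjusted p of 0.235 by the exact test. At NNAT no H3K27me3 list had a peak and H3K27ac averaged 2.42% ± 3.76 (SD, n = 16), with an adjusted p of 0.613 by the exact test. For DLK1 the adjusted p was 1 by the exact test, with 0% for H3K27me3 (n = 4) and 0.168% ± 0.671 for H3K27ac (SD, n = 16). At NNAT and DLK1 most H3K27ac lists had no peak either, and tied with the H3K27me3 lists. With these ties the test could give no lower p for H3K27ac higher. No such call was thus possible at either locus, and these values do not show that the marks were alike there. MEG3 and SNRPN had no peak in these lists and were not tested.

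DNA extraction was compared in 8 pairs of downsampled H3K27ac lists with the same antibody and cycle number, by an exact two-sided sign-flip test of column minus SDS. At NNAT 4 of 8 column lists and 1 of 8 SDS lists had a peak, and the mean share was 4.05% ± 4.39 after column extraction and 0.791% ± 2.24 after SDS extraction (SD, n = 8 each). The column list was higher in 4 pairs and the SDS list in 0, with an exact p of 0.125 and an adjusted p of 1. PEG10 had a peak in 2 of 8 column lists and 0 of 8 SDS lists, with an exact p of 0.5 and an adjusted p of 1. Pairs without a difference do not change the p of this test. With 4 pairs that differed at NNAT and 2 at PEG10, 0.125 and 0.5 are the smallest it can give. No call was thus possible at either locus, and these values do not show that extraction made no difference. GNAS had a peak in 1 of 8 lists of either kind. Over all 14673 windows and loci tested the share called was 0% in each direction, and at an unadjusted p under 0.05 column was higher in 60 and SDS in 57. The sign-flip test of 8 pairs can give no p below 0.00781. After adjustment over 14673, a call needed that p in very many windows at once. The 0% is therefore no evidence that extraction made no difference.

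The same lists formed 8 pairs of 13 and 11 cycles. At NNAT 1 of 8 lists at 13 cycles and 4 of 8 at 11 cycles had a peak, with mean shares of 0.968% ± 2.74 at 13 cycles and 3.87% ± 4.24 at 11 cycles (SD, n = 8 each), an exact p of 0.25 and an adjusted p of 1. At GNAS 2 of 8 lists at 13 cycles and 0 of 8 at 11 cycles had a peak, with an exact p of 0.5 and an adjusted p of 1. With 2 pairs that differed at GNAS, 0.5 is the smallest p the sign-flip test can give, so no call was possible there. At NNAT 13 cycles was higher in 1 pair and 11 cycles in 4. With so few differing pairs the smallest p also lies above 0.05, so no call was possible at NNAT either. Here too the share called over all windows and loci was 0% in each direction, under the same limit on the p. At an unadjusted p under 0.05, 13 cycles was higher in 74 and 11 cycles in 175 by this exact test. The pairs are conditions and not replicates, and each of the 4 antibodies gave 2 of them. These p-values therefore compare conditions and say nothing of variation between replicates.

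TSA was added in 4 libraries whose untreated counterparts differ by nothing else in the labels, and with 1 library a condition there is no test. The NNAT flank was marked after TSA with ab177178 (4.69%), ab4729 (9.63%) and Diagenode at 1/50 (8.23%), and without TSA with ab177178 (8.95%), ab4729 (16.5%) and Diagenode at 1/100 (6.51%). PEG10 was marked after TSA with ab177178 (2.70%) and ab4729 (3.33%), and without TSA with ab4729 (5.91%), Diagenode at 1/50 (4.38%) and Diagenode at 1/100 (4.28%). At GNAS the TSA list with a peak was that of Diagenode at 1/50, and the untreated lists were those of Diagenode at 1/50 and ab4729. DLK1 and MEG3 had peaks in no TSA list, and in the untreated list of ab177178.

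Between DLK1 and MEG3 both arms had H3K27ac in each pair. The covered share was 1.67% after TSA and 13.2% untreated with ab177178, and 6.37% after TSA and 10.5% untreated with ab4729. With Diagenode at 1/50 it was 4.72% after TSA and 9.81% untreated, and at 1/100 it was 3.09% after TSA and 2.92% untreated. The share was lower after TSA in 3 pairs and higher in 1. The whole lists also covered less of the genome after TSA in each pair. They covered 6.33 Mb after TSA and 27.45 Mb untreated with ab177178, and 25.3 Mb after TSA and 43.28 Mb untreated with ab4729. With Diagenode at 1/50 they covered 8.12 Mb after TSA and 31.89 Mb untreated. At 1/100 they covered 5.79 Mb after TSA and 11.99 Mb untreated. Whether shares in the interval or at the loci changed beyond this was not tested. The 15-cycle lists are not described as downsampled, so their depths may differ and no direction is tested.

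Antibody dilution can be read with Diagenode C15410196 in the SDS lists at 15 cycles. After TSA, 1/50 had peaks at NNAT and GNAS and 1/100 at none of the 9 loci. Untreated, 1/50 had peaks at PEG10 and GNAS, and 1/100 at PEG10 and NNAT. The NNAT peak at 1/100 had rank percentile 3.6 and a total signal of 2514. The lowest total signal was 2442 in that list and 5455 in the untreated 1/50 list. MACS2 called a peak at NNAT at both dilutions untreated. With 1 library each, these differences have no replicate check.

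MACS2 and SEACR were compared in the 6 untreated libraries at 15 cycles that have both lists. H3K27me3 was found at H19, IGF2, PEG10, MEST and GNAS by both callers, and H3K27ac at PEG10, NNAT and GNAS by both. At H19, H3K27me3 covered 62.0% by MACS2 and 51.3% by SEACR, and at IGF2 61.1% by MACS2 and 56.8% by SEACR. The MACS2 peaks of H3K27me3 at H19 had −log10 q-values of at most 3.39 and those at IGF2 of at most 4.22, against 11.3 at PEG10. Their highest rank percentiles in this list were 85.1 at H19, 94.5 at IGF2 and 99.8 at PEG10. The callers differed at DLK1 and MEG3, where MACS2 had no peak and SEACR had them in 1 H3K27ac library. At NNAT, MACS2 called a peak with Diagenode at 1/50 where SEACR called none.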

How the data were processed

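CUT&Tag peak lists of H3K27me3 and H3K27ac in K562 were used. The submitters' processing notes name hg19 and, without order or role, the peak callers MACS2 and SEACR, the aligner Bowtie2 2.2.9, the trimmer Trim Galore 0.6.6, and bedtools 2.25.0, SAMtools 1.3.1, Picard 2.6.0 and bcl2fastq. Peaks were called per library and without duplicates, per the labels; lists at 11 and 13 cycles followed downsampling. No source used here gives thresholds or read depth, and a peak missing from a list may lie under its threshold.

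Per peak, the deposited SEACR lists give the authors' total signal and greatest signal. The deposited MACS2 lists give −log10 q-values, −log10 p-values, a score and a fold enrichment (ratio). Total signal and the −log10 q-value ranked peaks within 1 list, and the score and fold were not used.

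Peaks on chromosomes 1 to 22 and X that overlapped a locus by at least 1 bp were counted. Overlapping peaks were merged, and the covered share of the locus was computed per list. Windows of the locus length tiled the same chromosomes, leaving out those with at least 50% in a stretch of 1 Mb or more without any peak. Exact permutation and sign-flip tests ran over 30 kb windows and loci with Benjamini-Hochberg adjustment, called under 0.05, and were tested on simulated data. No condition had a replicate library, so p-values compare libraries of different conditions and say nothing of variation between replicates. All 9 genes are named. Named regions are those merged over lists of 1 mark that were found in the most lists, ties going to the higher mean rank percentile, and other regions printed were chosen after their values were seen. The genes, regions and tests were chosen with earlier results of these data known. Alternatives changed flank, window, list threshold and size, libraries, antibodies and caller. No hg19 annotation was in hand, and gene roles are background. Python 3.11.15, numpy 2.4.6, pandas 2.3.3 and matplotlib 3.10.9 were used.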

Additional observations from a re-analysis of the deposited data

How the results depend on the processing

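Of 491 results under alternatives, 443 kept their direction and side of the threshold or stayed within 1.5 times. No called difference changed sign, and 5 uncalled differences did. The mark difference in points was -0.2688 at equal list size and -0.0006 by signal share at PEG10, against 0.8061, and -0.0003 by signal share at GNAS, against 0.4985. Without ab177178, column minus SDS at GNAS was -0.144, against 0.0124, and 13 minus 11 cycles at PEG10 was -0.7167, against 0.0278. IGF2 kept its call in every alternative run, with adjusted p from 0.00761 to 0.043. H19 lost it in the stronger 50% of each list (4.58 points, adjusted p 0.504) and had no peak at equal list size, 3761 peaks. MEST lost its call in those settings, without column 11, column 13 or SDS 13 (adjusted p 0.145 to 0.148), where the smallest exact p is 0.016, and without any 1 antibody (0.064 to 0.067). Loci with H3K27me3 higher numbered 1 of 9 in the stronger 50% and 1 at equal size, against 3. Windows and loci with H3K27me3 higher numbered 16257, or 42.4% of those tested, and 10233 (39.4%) in the stronger 50%, 1134 (8.62%) at equal size, 27338 (37.6%) with 10 kb windows and 7969 (47.7%) with 100 kb windows. Those with H3K27ac higher numbered 1447 (3.78%), and 671 (2.58%) in the stronger 50%, 596 (4.53%) at equal size, 559 (1.56%) without column 11, 635 (1.77%) without SDS 11, 748 (2.04%) without column 13 and 551 (1.51%) without SDS 13. The stronger 50% of each list left 3 loci with a H3K27ac peak, against 5.

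Counts of lists depended on the flank. Without a flank NNAT had H3K27ac in 0 lists, and with 10 kb H19 had it in 2 and MEG3 in 4. In the stronger 50% of each list, H3K27me3 remained at H19 in 1 list, and H3K27ac at DLK1 in 0, PEG10 in 3, NNAT in 5 and GNAS in 0. In the 6 libraries with both callers, MACS2 left 3 loci with H3K27ac, against 5 by SEACR. A −log10 q of at least 10 left 1 locus with H3K27me3 (PEG10), against 5, and 3 with H3K27ac. This cut takes unlike parts of the lists. A value of 11.3 stood at rank percentile 99.8 of the H3K27me3 list, and 10.4 stood at 18.6 of the ab4729 list. No paired analysis by replicate number was possible because every condition has 1 library and the labels give no replicate numbers; the pairs of extraction and of cycles match conditions. Read depth is unknown for every list, so the absence of a peak is not the absence of a mark.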
